A study of Mus musculus with 8 samples.

Results

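Prostaglandins and leukotrienes are lipid mediators made from arachidonic acid, and 10 genes that make, sense or break them down were followed in mouse skin: Ptgs1, Ptgs2, Ptges, Hpgd, Alox5, Alox5ap, Ltc4s, Ltb4r1, Cyp4f18 and Alox15. They were found by symbol among 22740 listed protein-coding genes, and all 10 passed the filter on low counts. The gene set was drawn up by role in the pathway and not by measured values, but with earlier results of these data known.

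Dorsal skin of female BALB/c mice kept on a low-fibre diet was sequenced. There were 8 libraries, each of 1 mouse, in 4 groups of 2. Butyrate, a short-chain fatty acid (labelled SCFA), was supplied in the drinking water (sodium butyrate, 400 mM) starting 2 weeks before the allergen, and CTL mice (labelled Vehicle) drank water without it. Lesional skin (labelled Atopic dermatitis) had been shaved and exposed 4 times over 2 weeks to 15 µg of house dust mite allergen (HDM) under a patch, whereas baseline skin received no allergen. The question was whether dietary butyrate changes allergen-exposed and resting skin. The mice were 6 to 8 weeks old, and no genetic modification was given. The first number of the sample title differs between baseline and lesional mice, and the second between CTL and butyrate-treated mice. The labels do not say what these numbers stand for. Whatever they mark cannot be told apart from HDM exposure or butyrate. Whole skin was used, in which fewer cells of a type and less RNA per cell cannot be told apart.

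In the prostaglandin branch, phospholipases A2 free arachidonic acid from membranes, the cyclooxygenases Ptgs1 and Ptgs2 turn it into prostaglandin H2, and Ptges converts this into prostaglandin E2, a mediator of redness, pain and itch in skin. Hpgd inactivates prostaglandin E2. In the leukotriene branch, Alox5 works with the membrane protein Alox5ap to make leukotriene A4, from which Ltc4s makes the cysteinyl leukotrienes and a hydrolase makes leukotriene B4, an attractant of neutrophils that signals through the receptor Ltb4r1. Cyp4f18 hydroxylates leukotriene B4 in mouse neutrophils, and Alox15 makes 12- and 15-hydroxylated products.

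The sequences just upstream of Ptgs2 and Cyp4f18 are given because these genes differed most between the groups. They were taken from RefSeq (GRCm38.p6), which held an upstream window for 8 of the 10 genes, and run 5′ to 3′ on the gene's own strand up to the base before its start. Capitals mark matches on either strand to an NF-kB type motif (GGG, any 5 bases, CC) and to the GC box GGGCGG. The Ptgs2 window is chr1:150099781-150100030 (plus strand) and the Cyp4f18 window is chr8:72009627-72009876 (minus strand).
Ptgs2: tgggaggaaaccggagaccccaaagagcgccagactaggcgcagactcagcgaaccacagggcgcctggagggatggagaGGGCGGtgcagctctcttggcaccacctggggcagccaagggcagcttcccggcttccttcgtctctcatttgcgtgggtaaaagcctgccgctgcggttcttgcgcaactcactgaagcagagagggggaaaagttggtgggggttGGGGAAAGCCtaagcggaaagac
Cyp4f18: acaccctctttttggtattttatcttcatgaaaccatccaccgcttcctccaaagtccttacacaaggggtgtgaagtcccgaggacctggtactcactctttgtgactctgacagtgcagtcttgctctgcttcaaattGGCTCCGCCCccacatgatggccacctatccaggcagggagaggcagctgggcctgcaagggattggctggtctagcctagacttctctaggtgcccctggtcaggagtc
The Ptgs2 window held an NF-kB type match 23 to 14 bases before the start and a GC box 170 to 165 bases before it. In Cyp4f18 the NF-kB type match lay 110 to 101 bases before the start, and the GC box, on the minus strand, overlapped it at 106 to 101. An NF-kB type match was found in 4 of the 8 genes (Ptgs2, Ptges, Alox5 and Cyp4f18), against 46% of 32536 upstream windows of all genes, and a GC box in 6 of the 8, against 33%. Only the 250 bases before each start were searched, so motifs elsewhere in a promoter would be missed. In this window none of the 8 held the core of the cAMP response element (TGACG), an AP-1 type motif (TGANTCA) or a TATA motif (TATAAA). Of all windows 17.9%, 6.73% and 12.3% held them. These matches describe letters and do not show binding.

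Total counts were 18004136 to 21085544 per library. Levels are given as CPM, the counts of a gene scaled to a common library size by TMM, with means ± SD of 2 mice. One library stood apart: in baseline butyrate skin the mice (replicates 1 and 3) were more than 2-fold apart in 3878 of 14319 genes (27.1%), against 257 to 717 in the other groups. Of the 10 genes, 8 were more than 2-fold apart in that pair, and the skeletal muscle markers were 27147 CPM in sum in replicate 1 and 5834 in replicate 3. Keratinocyte markers were present in every library, with a sum of 8810 to 21287 CPM. Krt10 was the highest of them in baseline CTL skin, Krt14 in lesional CTL skin and Krt5 in lesional butyrate skin. Because this pair widens the shared spread, results are given with all 8 libraries and without replicate 3. Genes were called at an FDR below 0.1 and a fold-change above 2 in edgeR's quasi-likelihood test over 15163 genes. The labels give no batch or pairing of mice, and p-values measure the spread between these libraries.

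Per kilobase of exon, which allows genes to be compared, Ptgs1 had the highest level of the 10 genes in every group and Alox15 or Cyp4f18 the lowest. In baseline CTL skin the levels were 46.7 ± 4.84 CPM per kb for Ptgs1 (n = 2), 24.4 for Alox5ap, 14.8 for Ptges, 13.9 for Hpgd, 12.4 for Ltb4r1, 9.91 for Ltc4s, 5.62 for Alox5, 0.988 for Ptgs2, 0.385 for Alox15 and 0.180 for Cyp4f18. The values of Ptges, Hpgd, Ltb4r1 and Ltc4s overlapped between neighbours in this order. In lesional CTL skin Ptges (35.5 CPM per kb) overlapped with Alox5ap (36.1) below Ptgs1 (41.5), and Ptgs2 (10.2) ranked 6 of 10, above Ltc4s (6.61) and Alox5 (5.80). In lesional butyrate skin Ptgs2 (3.82) ranked 8, as in both baseline groups.

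**Figure D1:**
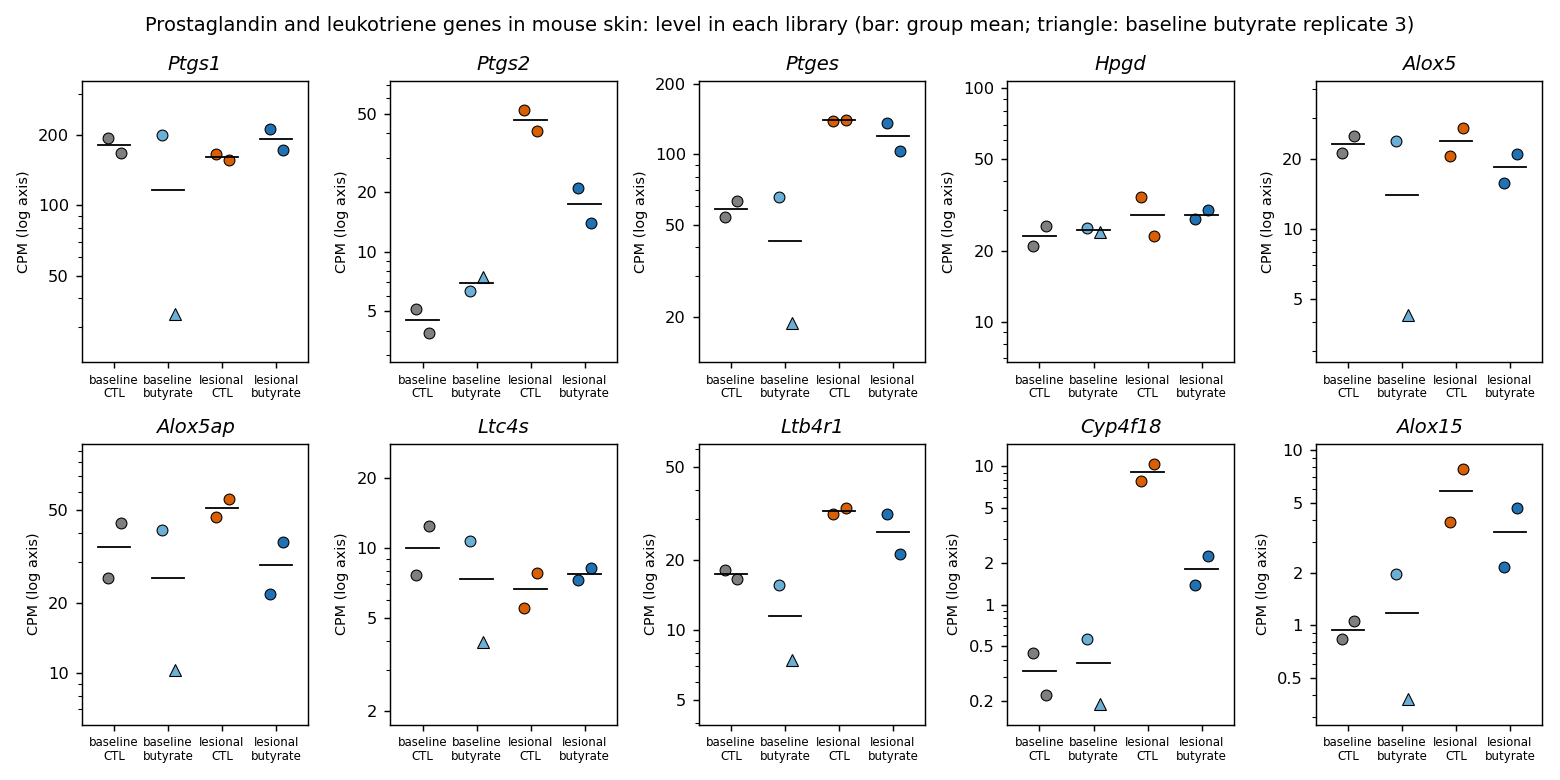
CPM of each gene (log axis) in the 8 libraries, in the 4 groups; each point is 1 mouse, the bar is the mean of 2 mice, and the triangle is baseline butyrate replicate 3. Ptgs2 and Cyp4f18 are highest in both lesional CTL mice, and the triangle lies far below its partner for Ptgs1 (34.2 against 200 CPM) but not for Ptgs2 or Hpgd.

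Ptgs2, the inducible cyclooxygenase, rose in CTL skin after HDM and was lower in lesional skin of butyrate-treated mice. Its level was 5.17 and 3.89 CPM in baseline CTL skin, 6.37 and 7.48 in baseline butyrate skin (replicates 1 and 3), 52.3 and 40.9 in CTL mice after HDM (replicates 4 and 5) and 21 and 14.0 in butyrate-treated mice after HDM (replicates 3 and 4). No 2 of the 4 groups overlapped. After HDM, Ptgs2 rose 10.3-fold in CTL mice (log2 fold change 3.36, SE 0.30, 95% interval 2.65 to 4.08; edgeR FDR 0.0141). In butyrate-treated mice it was 2.52-fold higher after HDM (log2 fold change 1.34, SE 0.28), which did not pass the threshold with all 8 libraries (edgeR FDR 0.184) and did without baseline butyrate replicate 3 (1.46, SE 0.33; FDR 0.0679). These HDM comparisons share no libraries with each other.

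In lesional skin, Ptgs2 was 2.66-fold lower with butyrate (log2 fold change -1.41, SE 0.27, 95% interval -2.07 to -0.76). Its unadjusted p was 0.00173 in edgeR, and the adjusted value did not pass with all 8 libraries (FDR 0.737). It did pass without baseline butyrate replicate 3 (FDR 0.0843) and also without replicate 1 (FDR 0.0855), neither of which is in the compared groups. In baseline skin Ptgs2 was higher with butyrate without overlap, but the log2 fold change of 0.61 (SE 0.28) did not pass (edgeR FDR 0.714). The difference between the butyrate effects in lesional and in baseline skin was -2.03 on the log2 scale (SE 0.39, unadjusted p 0.00174, edgeR FDR 0.840), and it was called without baseline butyrate replicate 1 (-2.13, FDR 0.0165) but not without replicate 3 (-1.90, FDR 0.441).

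Ptgs1, the constitutive cyclooxygenase, was not called in any comparison with all 8 libraries. It was at 195 and 168 CPM in baseline CTL skin, 200 and 34.2 in baseline butyrate skin, 166 and 156 in lesional CTL skin and 213 and 173 in lesional butyrate skin. Apart from the 34.2 of baseline butyrate replicate 3, the 7 other libraries lay between 156 and 213 CPM. Butyrate and CTL mice did not overlap in lesional skin, with a log2 fold change of 0.26 (SE 0.70, 95% interval -1.42 to 1.95; edgeR FDR 1.00), or 0.26 (SE 0.14, FDR 0.451) without replicate 3.

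The mix of the 2 cyclooxygenase transcripts differed between groups. Per kilobase, Ptgs2 made up 2.20% and 1.92% of their sum in baseline CTL skin, 21% and 18.2% in lesional CTL skin and 7.70% and 6.43% in lesional butyrate skin. In baseline butyrate skin it was 2.63% in replicate 1 and 15.7% in replicate 3, where Ptgs1 was low. With 2 mice a group an exact two-sided permutation test cannot go below p = 0.333, so these shares were not tested.

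**Figure D2:**
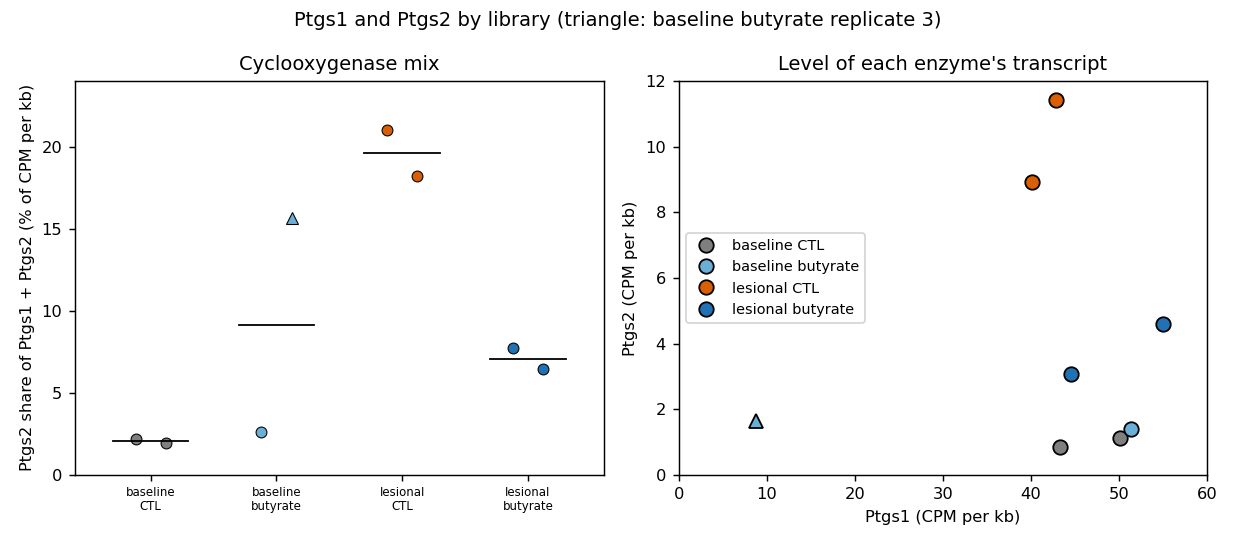
Left, Ptgs2 as a percentage of Ptgs1 plus Ptgs2 (CPM per kb) in each library, with bars at the means of 2 mice; right, CPM per kb of Ptgs2 against Ptgs1, with 1 point per mouse. Lesional CTL mice reach 21% and 18.2% at Ptgs1 levels like those of the other mice, whereas the triangle (baseline butyrate replicate 3) reaches 15.7% at a Ptgs1 level of 8.79 CPM per kb.

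Ptges, the inducible prostaglandin E synthase, was higher in lesional than in baseline skin. Its level was 53.8 and 62.9 CPM in baseline CTL skin, 65.6 and 19.0 in baseline butyrate skin, 139 and 140 in lesional CTL skin and 136 and 103 in lesional butyrate skin. All 4 lesional libraries lay above all 4 baseline libraries. The log2 fold change after HDM in CTL mice was 1.26 (SE 0.52), with an edgeR FDR of 0.257 with all 8 libraries and 0.00477 without baseline butyrate replicate 3. In butyrate-treated mice it was 1.50 (SE 0.53, FDR 0.324), and without replicate 3 it was 0.87 (SE 0.20, FDR 0.0644), below a 2-fold change. Butyrate and CTL differed by -0.22 in lesional skin (SE 0.51, 95% interval -1.47 to 1.02, FDR 1.00).

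Hpgd, which degrades prostaglandin E2, was the most even of the 10 genes. It was at 21.1 and 25.6 CPM in baseline CTL skin, 25.2 and 24.3 in baseline butyrate skin, 34.3 and 23.3 in lesional CTL skin and 27.5 and 30.1 in lesional butyrate skin. CTL groups overlapped, as did both lesional groups. The butyrate difference in lesional skin was 0.00 on the log2 scale (SE 0.22, 95% interval -0.52 to 0.53), and the change after HDM in CTL mice was 0.30 (SE 0.22, edgeR FDR 0.464).

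Alox5 and Alox5ap, the partners that start leukotriene synthesis, were not called. Alox5 was at 21.2 and 25.0 CPM in baseline CTL skin, 23.7 and 4.29 in baseline butyrate skin, 20.6 and 27.1 in lesional CTL skin and 15.8 and 21.1 in lesional butyrate skin. Its values overlapped in all 4 comparisons, and the change after HDM in CTL mice was 0.05 on the log2 scale (SE 0.69, or 0.20 without baseline butyrate replicate 3).

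Alox5ap was at 25.5 and 43.8 CPM in baseline CTL skin, 40.9 and 10.3 in baseline butyrate skin, 46.5 and 56.0 in lesional CTL skin and 21.8 and 36.4 in lesional butyrate skin. Both lesional butyrate mice lay below both lesional CTL mice, by -0.82 on the log2 scale (SE 0.63, edgeR FDR 1.00). Without baseline butyrate replicate 3 the interval was -1.61 to -0.02 (FDR 0.324). The summed markers of macrophages and dendritic cells, which express both genes, were highest in the same 2 mice as Alox5ap: 460 and 555 CPM in baseline CTL skin, 871 and 1026 in lesional CTL skin and 402 and 716 in lesional butyrate skin, with 693 and 183 in baseline butyrate skin. Of these 10 markers, 9 were lower with butyrate in lesional skin (median log2 fold change -0.52, against -0.01 for all tested genes) and none was called. Their part in the Alox5ap values was not tested.

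Ltc4s, the terminal enzyme of cysteinyl leukotrienes, was at 7.67 and 12.4 CPM in baseline CTL skin, 10.8 and 3.95 in baseline butyrate skin, 5.55 and 7.85 in lesional CTL skin and 7.30 and 8.23 in lesional butyrate skin. Groups overlapped in every comparison. The change after HDM in CTL mice was -0.58 on the log2 scale (SE 0.50, edgeR FDR 0.531). Mast cells are a cell type that uses this enzyme, and their summed markers went from 177 and 230 CPM to 617 and 539. Of these 10 markers 4 were called higher, against 3.58% of all genes called. An antisense gene, Gm26542, shares 268 of the 1014 exon bases of Ltc4s, and whether the library kit kept strand is not given in the sources used here, so reads of both cannot surely be told apart.

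Ltb4r1, the high-affinity leukotriene B4 receptor, was at 18.1 and 16.6 CPM in baseline CTL skin, 15.6 and 7.43 in baseline butyrate skin, 31.3 and 33.4 in lesional CTL skin and 31.5 and 21.3 in lesional butyrate skin. All lesional libraries exceeded all baseline libraries. The log2 fold change after HDM was 0.90 in CTL mice (SE 0.36, edgeR FDR 0.247, or 0.0208 without baseline butyrate replicate 3, below 2-fold). In butyrate-treated mice it was 1.20 (SE 0.37, FDR 0.288), or 0.76 (SE 0.25, FDR 0.115) without that library. With butyrate in lesional skin the difference was -0.29 (SE 0.36, FDR 1.00), and the groups overlapped.

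Cyp4f18, the leukotriene B4 hydroxylase of neutrophils, rose most of the 10 genes. It was close to the floor in baseline skin, with 8 and 4 counts (0.445 and 0.222 CPM) in CTL mice and 10 and 4 counts (0.564 and 0.191 CPM) in butyrate-treated mice, where 3 counts correspond to 0.138 to 0.169 CPM over the libraries. In lesional skin it was 7.79 and 10.4 CPM in CTL mice and 1.38 and 2.23 in butyrate-treated mice. Lesional groups did not overlap with each other or with baseline skin. After HDM it rose 26.8-fold in CTL mice (log2 fold change 4.74, SE 0.60, 95% interval 3.28 to 6.21; edgeR FDR 0.0322). In butyrate-treated mice the log2 fold change was 2.27 (SE 0.58, FDR 0.244), or 1.67 (SE 0.55, FDR 0.116) without baseline butyrate replicate 3.

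In lesional skin Cyp4f18 was 5.01-fold lower with butyrate (log2 fold change -2.33, SE 0.51, 95% interval -3.55 to -1.10, unadjusted p 0.00334). The edgeR FDR was 0.737 with all 8 libraries, 0.0595 without baseline butyrate replicate 3 and 0.0625 without replicate 1. In baseline skin butyrate and CTL overlapped (log2 fold change 0.14, SE 0.67). The difference between both butyrate effects was -2.47 (SE 0.84, FDR 0.840). Cyp4f18 shares 181 of its 1855 exon bases with Zfp961 on the opposite strand.

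Most neutrophil markers, like Cyp4f18, were highest in lesional CTL skin. Their sum was 85.2 and 82.3 CPM in baseline CTL skin, 77.5 and 40.4 in baseline butyrate skin, 2735 and 1759 in lesional CTL skin and 820 and 386 in lesional butyrate skin. S100a9 and S100a8 made up most of it in lesional skin and Il1r2 in baseline skin (65.7 and 62.7 CPM in CTL mice). After HDM in CTL mice 8 of 10 tested markers were called higher (S100a8, S100a9, Csf3r, Cxcr2, Retnlg, Mmp8, Clec4d and Trem1), against 3.58% of all genes. The other two tested markers were lower and not called, Il1r2 at -0.47 and Mpo at -1.41 on the log2 scale (edgeR FDR 0.518 and 0.421), and the median of the 10 was 4.81. With butyrate in lesional skin 10 of 10 were lower (median -2.01) and none was called. In each of the 8 called markers both lesional CTL mice lay above both lesional butyrate mice, and these above all baseline mice. These 8 were selected by their rise from baseline to lesional CTL skin, so this order is partly built in. The listed markers Il1r2, Mpo, Elane and Ly6g did not follow it. Il1r2 and Mpo were highest in baseline CTL skin, and Elane was higher in lesional butyrate than in lesional CTL skin.

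The granule gene Elane stayed at or below 0.372 CPM and Ly6g at or below 0.231 CPM in every library. Within lesional CTL skin Cyp4f18 and 6 of the 8 called markers were higher in replicate 5, whereas S100a8 and S100a9 were higher in replicate 4. Within lesional butyrate skin Cyp4f18, Csf3r, Mmp8, Clec4d and Trem1 were higher in replicate 4, and S100a8, S100a9, Cxcr2 and Retnlg in replicate 3. The part of the markers in the Cyp4f18 and Ptgs2 values was not tested.

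**Figure D3:**
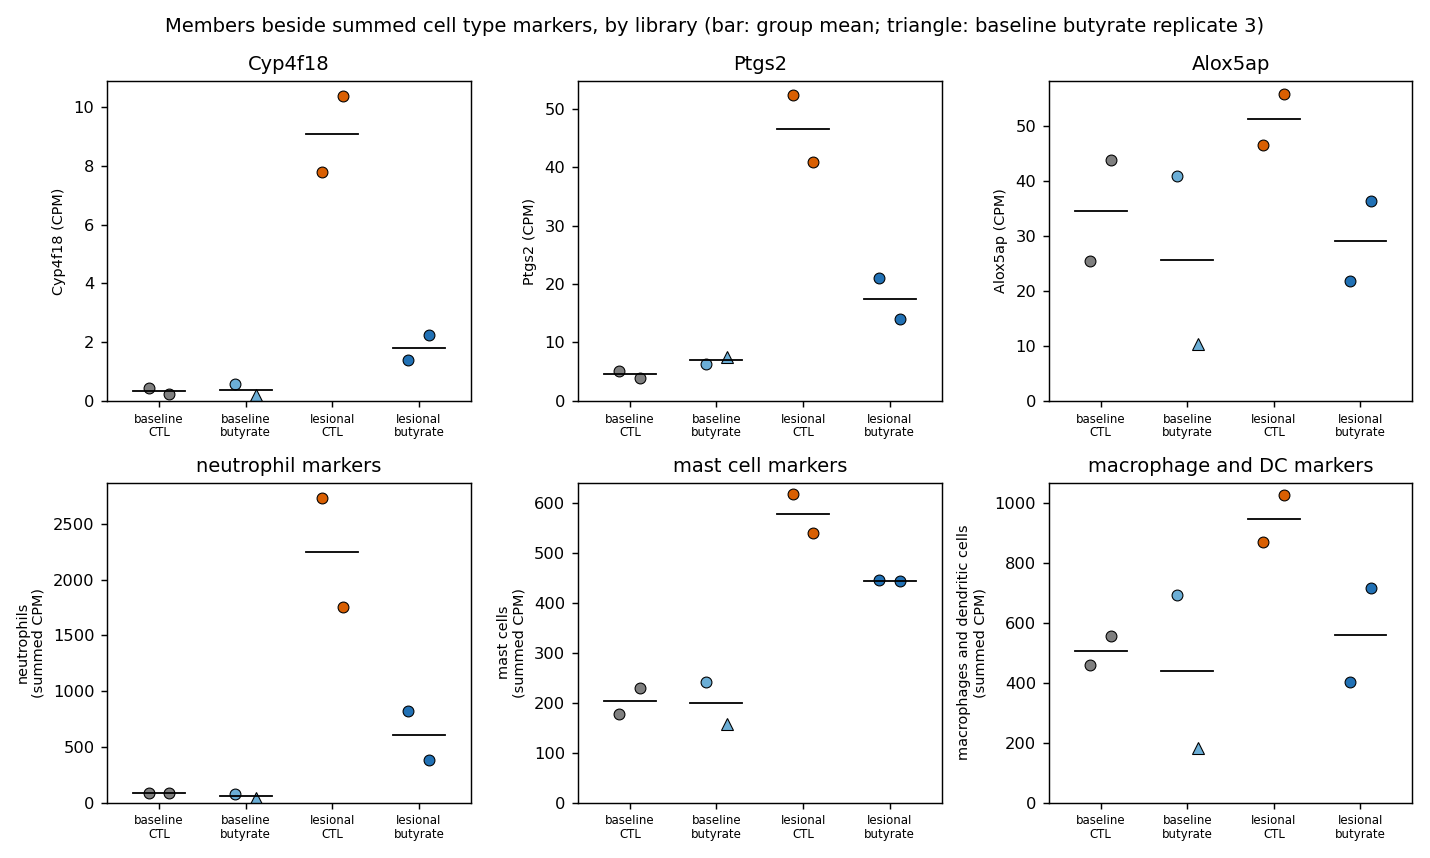
Top, CPM of Cyp4f18, Ptgs2 and Alox5ap; bottom, summed CPM of neutrophil, mast cell, and macrophage and dendritic cell markers; each point is 1 mouse, the bar is the mean of 2 mice, and the triangle is baseline butyrate replicate 3. Lesional CTL mice are highest in all 6 panels, with neutrophil marker sums of 2735 and 1759 CPM against 820 and 386 in lesional butyrate skin. In lesional skin these sums are mostly S100a8 and S100a9.

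Alox15, the 12/15-lipoxygenase, was at 0.834 and 1.05 CPM in baseline CTL skin, 1.97 and 0.381 in baseline butyrate skin, 3.90 and 7.75 in lesional CTL skin and 2.15 and 4.65 in lesional butyrate skin. All lesional libraries exceeded all baseline libraries, and lesional butyrate and CTL overlapped. The log2 fold change after HDM in CTL mice was 2.62 (SE 0.81, unadjusted p 0.0171, edgeR FDR 0.167), and it was called without baseline butyrate replicate 3 (SE 0.54, FDR 0.0201). With butyrate in lesional skin it was -0.78 (SE 0.74, FDR 1.00). Eosinophils are another source of this enzyme. Their 5 markers summed to 2.00 and 1.33 CPM in baseline CTL skin, 2.14 and 0.953 in baseline butyrate skin, 2.99 and 6.09 in lesional CTL skin and 1.1 and 1.72 in lesional butyrate skin, and Epx had 0 counts in all 8 libraries. Of the 2 markers tested, Ccr3 was called higher after HDM in CTL mice (log2 fold change 3.06, SE 0.57, edgeR FDR 0.0604) and Siglecf was not, and both were lower with butyrate in lesional skin without being called (-2.12 and -1.60). Their part in the Alox15 values was not tested.

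Counted over the set, 2 of the 10 genes were called after HDM in CTL skin, both higher (Ptgs2 and Cyp4f18), against 3.58% of all tested genes, and the median log2 fold change was 0.73, against -0.02 for all. In 7 of 10 the groups did not overlap, against 75.2% of all genes, which is near that background. Without baseline butyrate replicate 3, 4 were called higher (also Ptges and Alox15), against 12.5% of all genes. The calls of all 8 libraries also depended on the libraries fitted: both were lost without either baseline CTL mouse or lesional CTL replicate 4. Cyp4f18 was further lost without lesional CTL replicate 5 or lesional butyrate replicate 3 or 4. Each of these fits leaves 1 mouse in a group, and the share of all genes called in it is not given. A loss particular to these genes can therefore not be told from a general one. In all these fits the log2 fold change stayed between 3.17 and 3.58 for Ptgs2 and between 4.34 and 5.32 for Cyp4f18.

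In butyrate-treated mice all 10 genes were higher after HDM (median log2 fold change 0.96, against -0.04 for all genes), but none was called by edgeR, against 0.35% of all genes. By unadjusted p below 0.05 in edgeR there were 4 (Ptgs2, Ptges, Ltb4r1 and Cyp4f18), against 13.1% of all genes. There were 0 calls by limma-voom and 4 by DESeq2, for which the share of all genes is not given. Groups did not overlap in 6 of 10, against 32.5% of all genes. Without baseline butyrate replicate 3 only 6 of 10 remained higher and 1 was called (Ptgs2), against 5.94% of all genes, and without replicate 1, which leaves only the library that stood apart in baseline butyrate skin, there were 8 calls, against 19.1% of all genes.

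For butyrate against CTL in lesional skin none of the 10 was called by edgeR, as for all genes (0%). An unadjusted p below 0.05 in edgeR was reached by 2 (Ptgs2 and Cyp4f18), against 734 of all genes (4.84%). There were 0 calls by limma-voom and 2 by DESeq2. The groups did not overlap in 5 of 10 (Ptgs2, Ptges, Alox5ap and Cyp4f18 lower, Ptgs1 higher), against 44.9% of all genes. Without baseline butyrate replicate 3, the 2 genes Ptgs2 and Cyp4f18 were called, against 1.22% of all genes. In baseline skin none of the 10 was called by edgeR (0% of all genes), limma-voom or DESeq2. None had an unadjusted p below 0.05 in edgeR, against 3.49% of all genes. Only Ptgs2 (higher) and Ltb4r1 (lower, -0.59, SE 0.37) did not overlap there, 2 of 10 against 29.7% of all genes. The difference between the butyrate effects called none of the 10 by edgeR (0% of all genes) or limma-voom and Ptgs2 by DESeq2. In edgeR 2 had an unadjusted p below 0.05, against 4.64% of all genes. The lesional butyrate comparison and the HDM comparison in CTL mice share the lesional CTL libraries, so opposite signs in them are not independent.

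**Figure D4:**
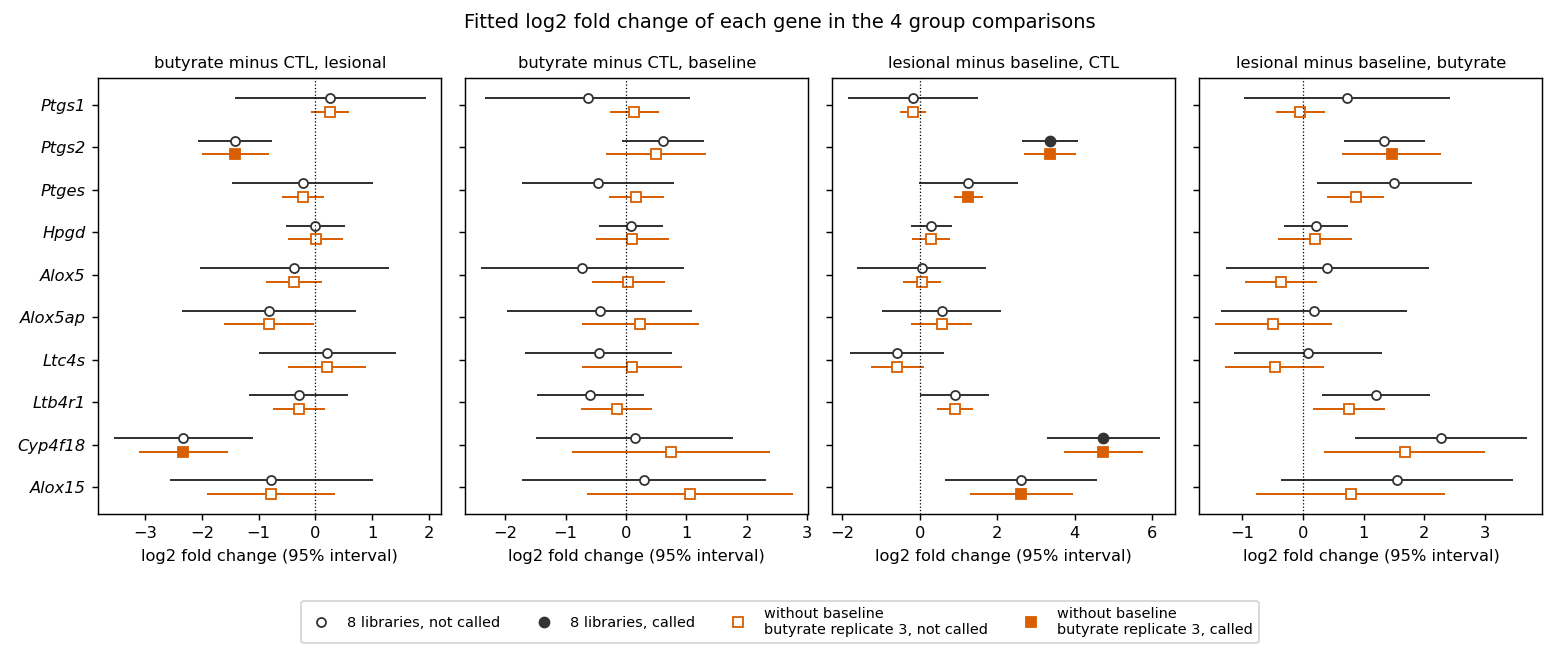
Fitted log2 fold change with 95% interval (x axis) of each gene in the 4 comparisons, with all 8 libraries (circles) and without baseline butyrate replicate 3 (squares); filled symbols are called. In CTL mice Ptgs2 (3.36) and Cyp4f18 (4.74) are filled in both fits, and leaving out that library narrows most intervals.

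The pathway around these genes was followed with 60 tested genes of a wider list of 74, of which 73 were listed. After HDM in CTL skin 7 of the 60 were called, 3 higher and 4 lower, against 3.58% of all genes, and 15 had an unadjusted p below 0.05, against 19.7%. The median log2 fold change was -0.12, against -0.02 for all genes. Without baseline butyrate replicate 3, 15 of 61 were called, 7 higher and 8 lower, against 12.5% of all genes. The 8 added were Alox8, Fpr2, Ptgir and Slco2a1 (higher) and Aloxe3, Akr1c18, Ptgds and Cyp2j6 (lower), and fits of only the compared groups by edgeR and limma-voom also called these 8. In the other direction, the count fell without any 1 of the CTL mice or the lesional butyrate mice. The share of all genes called in these fits is not given, so this fall cannot be told from a general one.

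Upstream, epidermal phospholipases A2 changed in opposite directions. Pla2g4d had 0 counts in all 4 baseline libraries, 4.75 and 3.18 CPM in lesional CTL skin and 1.15 and 0.465 in lesional butyrate skin. In CTL mice it was thus at least 47.6-fold higher after HDM, counting 3 counts over both baseline mice as the floor (edgeR FDR 0.0519). Pla2g4e was at 39.9 and 41.5 CPM in baseline CTL skin, 41.9 and 26.4 in baseline butyrate skin, 212 and 156 in lesional CTL skin and 124 and 81.1 in lesional butyrate skin, and rose 4.52-fold in CTL mice (log2 fold change 2.18, SE 0.32, FDR 0.0384).

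Pla2g3 fell 4.80-fold after HDM in CTL mice (log2 fold change -2.26, FDR 0.0372), from 10.4 and 7.83 CPM to 1.65 and 2.12. Pla2g2f, a secreted enzyme of upper epidermis and the highest phospholipase A2 per kilobase, was at 337 and 320 CPM in baseline CTL skin, 359 and 182 in baseline butyrate skin, 217 and 230 in lesional CTL skin and 538 and 356 in lesional butyrate skin. Its butyrate difference in lesional skin was 1.00 on the log2 scale (SE 0.35, edgeR FDR 0.942), and it was called without baseline butyrate replicate 1 (FDR 0.0995). Pla2g4d (-2.29, SE 0.59, FDR 0.861) and Pla2g4e (-0.84, SE 0.30, FDR 0.951) lay the other way there. In this comparison the 9 of 11 phospholipases A2 that did not overlap were 6 higher and 3 lower, against 44.9% of all genes that did not overlap, and none was called.

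Among the lipoxygenases, Alox12e rose after HDM in CTL mice, from 180 and 140 CPM to 374 and 353 (log2 fold change 1.18, SE 0.25, edgeR FDR 0.0839). It also rose in butyrate-treated mice, from 156 and 105 CPM to 577 and 443 (1.96, SE 0.26, FDR 0.0841), and was the only one of the 60 called there. That call was lost without either baseline CTL mouse, either lesional CTL mouse or either lesional butyrate mouse, and in a fit of only the compared groups. Alox12, the platelet-type 12-lipoxygenase, which is also made in epidermis, fell in CTL mice from 19.7 and 18.8 CPM to 5.07 and 7.52 (-1.61, SE 0.28, FDR 0.0523). With butyrate it was at 12.6 and 13.4 CPM in lesional skin, higher than in CTL without overlap (1.05, SE 0.28, unadjusted p 0.00862, FDR 0.760), and it was called without baseline butyrate replicate 3 (FDR 0.0929) or 1 (FDR 0.0941). In baseline butyrate replicate 3 Alox8 was at 98.1 CPM, Ptgds at 50.5 and Ggt1 at 46.9, against at most 25.3, 7.61 and 0.374 in the other libraries; these were singled out after their values were seen.

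Of the prostanoid synthases (10 tested) and leukotriene enzymes (7 tested) none was called by edgeR after HDM in CTL mice, against 3.58% of all genes. An unadjusted p below 0.05 in edgeR was reached by 0 and 1, against 19.7% of all genes. On all 8 libraries limma-voom and DESeq2 also called none. When baseline butyrate replicate 3 was left out, 2 synthases were called lower, Akr1c18 (log2 fold change -1.70, edgeR FDR 0.013) and Ptgds, the lipocalin-type prostaglandin D synthase (FDR 0.0146). With all 8 libraries the exception by unadjusted p was Mgst3, a glutathione transferase that can make leukotriene C4, at -0.50 (SE 0.16, FDR 0.173). Averaged over all libraries, the leading genes per kilobase were Ptges3, Mgst3 and, for breakdown, Ptgr1 (-0.68, FDR 0.192). In baseline CTL skin, however, Akr1c18 (82.5 CPM per kb) and Prxl2b (52.3) lay above Ptges3 (36.6). The prostaglandin transporter Slco2a1 was at 1.11 (SE 0.29, FDR 0.122), the prostacyclin receptor Ptgir at 1.20 (SE 0.45, FDR 0.225) and the prostaglandin E2 receptor Ptger2 at 0.89 (SE 0.32, FDR 0.212), while Ptger4 was at 0.10. Ptger4 was the highest prostanoid receptor per kilobase averaged over all libraries, but Ptger3 lay above it in baseline CTL skin (3.87 against 3.51 CPM per kb) and in lesional butyrate skin (4.91 against 4.03). With all 8 libraries DESeq2 called Slco2a1 and Ptgir and limma-voom neither. Both were called by edgeR without baseline butyrate replicate 3 (FDR 0.0099 and 0.0103) and by limma-voom on only the compared groups (FDR 0.00767 and 0.00712).

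Ptger2 was at 1.22 and 1.17 CPM in baseline CTL skin, 2.56 and 1.89 in lesional CTL skin and 1.05 and 1.30 in lesional butyrate skin, where it was lower by -0.91 on the log2 scale (SE 0.32, edgeR FDR 0.942). Fpr2, a receptor of neutrophils that also binds lipoxin, was at 10.2 and 13.0 CPM in lesional CTL skin and 1.72 and 2.93 in lesional butyrate skin (-2.31, SE 0.83, FDR 0.951). Cmklr1, a receptor for the lipid mediator resolvin E1 and the highest of its group per kilobase averaged over all libraries, was at -0.40 there.

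Most cytochrome P450 and epoxide hydrolase genes were lower after HDM in CTL mice, 8 of 10 tested, against 51.3% of all genes. Of these, Ephx1 (-1.58, SE 0.31, edgeR FDR 0.0693) and Cyp2j9 (-1.53, SE 0.24, FDR 0.0412) were called, against 3.58% of all genes. In butyrate-treated mice 5 were higher and 5 lower after HDM, and none was called, against 0.35% of all genes. Ephx1, the microsomal epoxide hydrolase, was at 137 and 118 CPM in baseline CTL skin, 121 and 62.3 in baseline butyrate skin, 39.6 and 45.8 in lesional CTL skin and 65.1 and 64.5 in lesional butyrate skin. Cyp4f13 (-0.71, FDR 0.168), Cyp4f17 (-0.58, FDR 0.157) and Cyp2j6 (-1.40, FDR 0.145) had an unadjusted p below 0.05, so that the relatives Cyp4f13 and Cyp4f17 lay opposite to Cyp4f18. The relative Cyp4f16 lay in the direction of Cyp4f18 without being called. It was at 7.84 and 10.6 CPM in baseline CTL skin and 13.9 and 11.9 in lesional CTL skin. Of the 7 keratinocyte markers, 4 were lower and 3 higher after HDM in CTL mice, and none was called. Krt10 was at 6950 and 6666 CPM in baseline CTL skin and 835 and 1697 in lesional CTL skin. The differentiation marker Ivl went the other way, from 147 and 147 CPM to 165 and 167. Their part in these values was not tested.

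For butyrate in lesional skin none of the 60 was called by edgeR (0% of all genes), limma-voom or DESeq2. In edgeR 6 had an unadjusted p below 0.05 (Pla2g4d, Pla2g4e, Pla2g2f, Ptger2, Alox12 and Fpr2), against 4.84% of all genes. There were 33 higher and 27 lower, with a median log2 fold change of 0.09, and in 34 of 60 the groups did not overlap, against 44.9% of all genes. In baseline skin none was called by these tools and 1 (Alox8) had an unadjusted p below 0.05 in edgeR, against 3.49% of all genes.

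**Figure D5:**
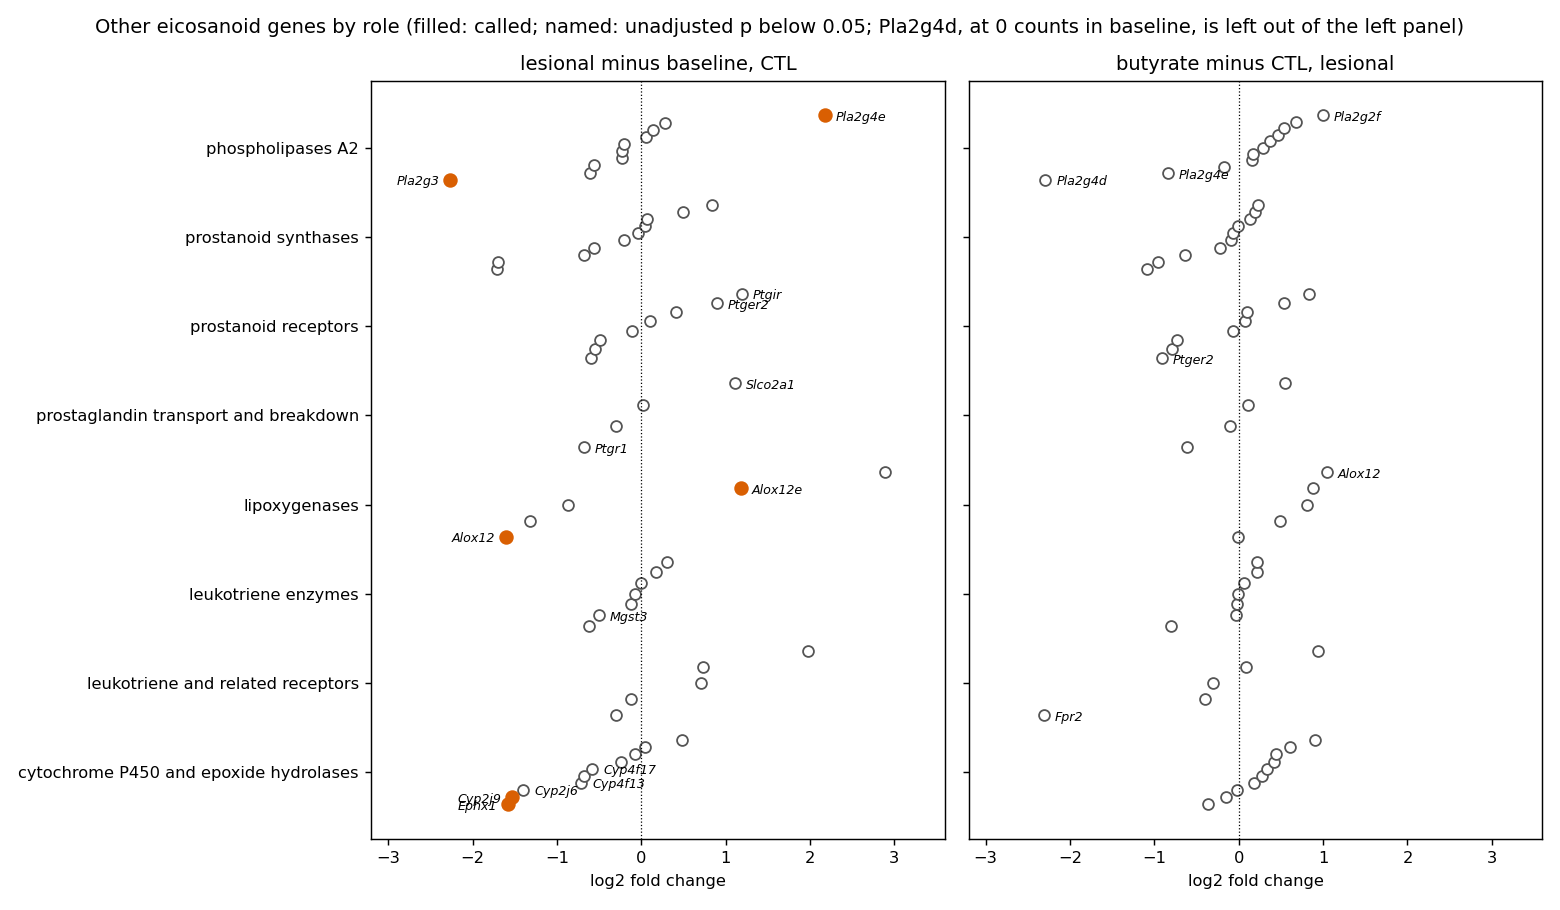
Log2 fold change (x axis) of the 60 other eicosanoid genes by role, after HDM in CTL mice (left) and for butyrate against CTL in lesional skin (right); filled points are called and named points have an unadjusted p below 0.05. Pla2g4d, called higher after HDM from 0 counts in baseline skin, is not drawn on the left. On the left Pla2g4e (2.18) and Pla2g3 (-2.26) lie farthest out among the called genes drawn, and on the right no point is filled.

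Across the 8 libraries the members fell into different patterns. On log2 CPM, Ltb4r1 and Ptges had the highest Pearson r of any pair (0.979), followed by Cyp4f18 with Ptgs2 (0.936), Alox5 with Alox5ap (0.918) and Alox5 with Ptgs1 (0.913). Alox5 and Ptgs1 were lowest together in baseline butyrate replicate 3 (4.29 and 34.2 CPM). Among the other libraries Alox5 was lowest (15.8 CPM) where Ptgs1 was highest (213). It was highest (27.1 CPM) where Ptgs1 was lowest (156). The r of these pairs without baseline butyrate replicate 3 was not computed. The genes most like Ptgs2 among 14197 were Nus1 (r = 0.995), Mmp13 (0.987), Smim3 (0.985), Tpd52 (0.984) and Prss12 (0.982), and 81 genes were above 0.95. Those most like Alox5 were Npdc1, Top1mt, Pde8a, Jak1 and Stat5b (0.990 to 0.994). Without baseline butyrate replicate 3 their r was 0.879 to 0.974, whereas for the genes like Ptgs2 it was 0.981 to 0.995. For Hpgd the closest was Pkmyt1 at 0.918, followed by Dhodh, Tonsl, Gm9755 and Tmem206, with no gene above 0.95. The points share groups of 2 mice, so these values describe the libraries and were not tested.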

How the data were processed

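RNA of excised skin was prepared with an Illumina TruSeq RNA kit. Per the labels and the paper, the authors aligned reads with STAR 2.5.2 to GRCm38 through RNASik, used featureCounts to count reads per gene, and deposited reverse-strand raw counts of protein-coding genes that were not normalized. Whether the kit marked strand is not given in the sources used here. The design text counts 16 samples, and 8 were analysed here.

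From these counts, edgeR 4.0.16 (R 4.3.3) was run on all 8 libraries with TMM scaling, filterByExpr (minimum count 10), robust glmQLFit and glmQLFTest, with 4 residual degrees of freedom and a prior count of 0.125. SE was the log2 fold change divided by the root of F, and intervals are 95%. FDR is Benjamini-Hochberg over 15163 tested genes. CPM per kb uses union exon lengths of GENCODE vM21 (GRCm38). The paper used limma-voom. Alternatives run here were limma-voom (limma 3.58.1), DESeq2 1.42.0, RLE scaling, no filter, a prior count of 2, fits of the compared groups only and leaving out each library. Scripts were tested on simulated data. Counts give about 0.138 to 0.169 CPM at 3 counts, and this floor covers counting error only.

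The genes, the wider and marker lists, the motifs and the naming rule were chosen with earlier results of these data known. Named were all 10 genes, and wider-list genes that were called, had an unadjusted p below 0.05 after HDM in CTL or for butyrate in lesional skin, or were highest per kb of their role. Antisense genes share exon bases with Ptgs1 (148), Alox5ap (189), Ltc4s (268) and Cyp4f18 (181).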

Additional observations from a re-analysis of the deposited data

Results flagged for a closer look

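The butyrate effects on Ptgs2 pointed in opposite directions, since butyrate-treated mice lay above both CTL mice in baseline skin and below both CTL mice in lesional skin. The difference of the effects (lesional minus baseline) was -2.03 on the log2 scale (SE 0.39, edgeR quasi-likelihood unadjusted p 0.00174), and it did not pass the adjustment over all genes (FDR 0.840). The baseline effect itself was 0.61 (SE 0.28) and did not pass (FDR 0.714). The difference stayed between -2.34 and -1.76 in 13 fits. It was called by DESeq2 (FDR 0.0208) and without baseline butyrate replicate 1 (FDR 0.0165), which leaves only the library that stood apart in that group, and it was not called without replicate 3 (-1.90, FDR 0.441).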

How the results depend on the processing

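No paired analysis was possible because no pair of compared groups has more than 1 replicate number in common. Ptgs2 and Cyp4f18, called after HDM in CTL mice, kept their sign there in all fits. Their groups did not overlap there, so refits of the same libraries could hardly turn it. For butyrate in lesional skin, 0 of the 10 genes and 0 of the 60 wider-list genes were called with all 8 libraries; DESeq2 called 2 of the 10, and leaving out 1 library gave 0 to 2 of the 10 and 0 to 2 of the wider list. Over all genes edgeR called 0 there, limma-voom 1, DESeq2 124 and fits of the compared groups only 25 (edgeR) and 14 (limma-voom).

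For butyrate in baseline skin the counts of 0 and 0 became up to 6 and 23, both without baseline butyrate replicate 1, where only the library that stood apart is left and is assumed to vary like the other groups. There Ptgs1 was called at -2.41, Ptges at -1.62, Alox5 at -2.43 and Alox5ap at -1.75, against 0.14, 0.17, 0.04 and 0.24 without replicate 3. After HDM in butyrate-treated mice Alox8 was called at -2.45 without replicate 1 and at 3.10 without replicate 3. After HDM in CTL skin 2 and 7 were called, fits of the compared groups only gave 4 and 15 (edgeR and limma-voom), and leaving out 1 library gave 0 to 4 and 0 to 15. Over all genes there were 543 calls, 1093 by DESeq2 and 1918 in the edgeR fit of the compared groups only. After HDM in butyrate-treated skin the counts of 0 and 1 became 4 and 7 in DESeq2, the wider list 0 in both fits of the compared groups only, and 0 to 8 and 0 to 24 without 1 library. For the difference of butyrate effects the counts of 0 and 0 became 1 of the 10 in DESeq2 and 0 to 5 and 0 to 26 without 1 library. RLE scaling and no filter left all these counts of the 10 and the 60 as they were. For butyrate in baseline skin and the difference of butyrate effects, the alternative counts lack the share of all genes called in the same fit. The DESeq2 counts after HDM in butyrate-treated skin lack it too. So do the counts after HDM in CTL skin without 1 library, except for baseline butyrate replicate 3. Such counts cannot show that these genes were called more often than other genes.

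Ptgs2 kept its direction in 15 of 15 fits in lesional skin (-1.73 to -1.15) and Cyp4f18 likewise (-2.71 to -2.02). In both genes the lesional groups did not overlap, so refits of the same libraries could hardly turn the sign. The agreement between fits is therefore no added support. With 2 mice a group, wide intervals do not show that the other genes are unchanged. Cyp4f18 in baseline skin rests on 4 to 10 counts a library.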
